A study of Mus musculus with 30 samples.

Results

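Satellite cells, which are muscle stem cells, were compared between injured and uninjured hind limbs of old C57BL/6 mice. The injured group, oASC, was labelled 2.5 dpi and had received BaCl2, a salt that destroys muscle fibres. The uninjured group, oQSC, was labelled as old cells fixed in situ, with no treatment. Each group holds 2 libraries, so the comparison rests on 4 of the 30 libraries of the series, chosen by their columns in the count table of old cells. Per the labels, fixation was by perfusion with PFA, RNA was extracted with a kit made for fixed tissue, and polyadenylated RNA was sequenced. Genotype beyond the strain, age in months, the markers used to sort the cells and whether animals were pooled are details not given in the sources used here. Nothing in the labels ties the libraries of a group to separate animals, and p-values therefore measure the spread between libraries, which may be technical. Another pair of old libraries, oFISC, labelled as freshly isolated and with the BaCl2 treatment, entered the fit for its estimate of that spread and is not otherwise described. Cells not labelled old, taken 60 h after injury or uninjured, are set beside the old cells in the last comparison.

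Satellite cells lie between the muscle fibre and its basal lamina and are marked by the transcription factor Pax7. In resting muscle they stay out of the cell cycle, held there in part by Notch signalling. After injury they divide as myoblasts that express Myf5 and Myod1, and their progeny withdraw from the cycle, express Myog and fuse into new fibres. Isolation itself is known to induce stress and immediate early genes in these cells, and fixing the tissue before dissociation is a way to limit that.

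The libraries held 55.2 and 57.4 M counts in oASC and 44.8 and 47.2 M in oQSC, over a table of 55335 genes. The make-up of these totals differed between the groups. Ribosomal RNA models took 13.8 and 13.2% of counts in the oASC libraries, against 0.320 and 0.472% in the oQSC libraries. They are the nuclear models annotated as ribosomal RNA and any model at or close to one of these, CT010467.1 on chromosome 17. A set of 12 unnamed models on chromosomes 2, 9 and 14, called repeat-like here, took 0.0191 and 0.0148% of counts in oASC and 21.1 and 18.8% in oQSC. The set holds models that share a part of at least 0.1 of their 11-base words with the model Gm10800. It was not matched to repeat sequences. Most of the repeat-like counts lay in Gm10800 itself (GRCm38, 2:98666547-98667301, minus strand), with 0.0129 and 0.00983% in oASC and 16.5 and 14.7% in oQSC. Mitochondrial genes took 4.81 and 5.52% in oASC and 1.36 and 1.19% in oQSC, whereas protein-coding genes took similar shares, 76.8 and 76.6% in oASC and 72.8 and 75.6% in oQSC. These shares move with the groups, and their part in the differences between genes was not tested beyond a refit. That refit left out such models and all other unnamed models. It called 9468 of 19172 genes tested, where the main fit called 12137 of 30099. Levels are given below in CPM, counts set to a common library total and scaled by TMM, which sets libraries level on a trimmed mean of gene ratios.

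**Figure D1:**
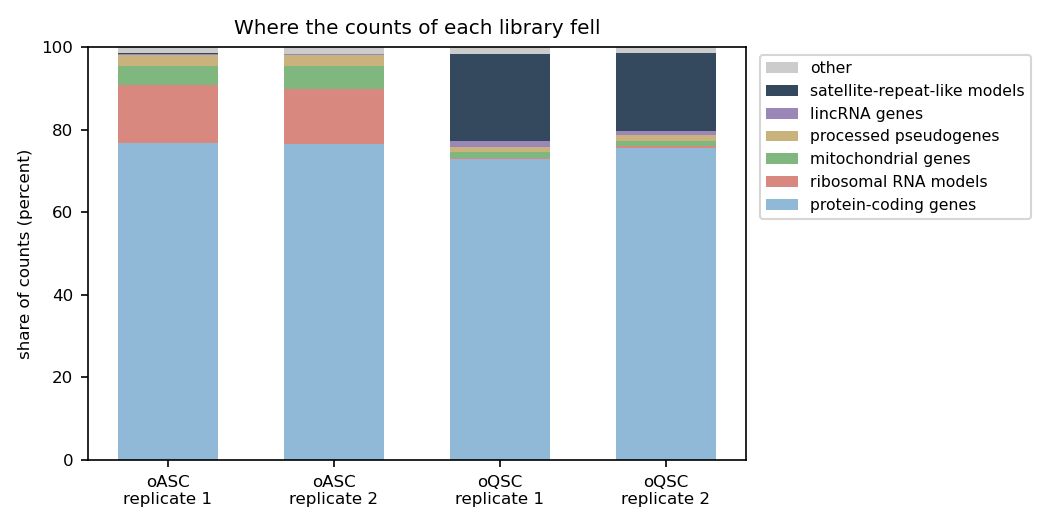
Percent of the counts of each library that fell in 7 classes of gene models, for oASC and then oQSC libraries. Repeat-like models fill 21.1 and 18.8% of the oQSC libraries and are too small to see in oASC, where ribosomal RNA models fill 13.8 and 13.2%.

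Markers of the labelled cell type were present in all 4 libraries, but the uninjured libraries also held transcripts that quiescent satellite cells are known to have at low levels. Pax7 reached 9.03 and 8.68 CPM in oASC and 73.6 and 61.6 CPM in oQSC. Myod1 stood at 759 and 578 CPM in oASC and at 931 and 1301 CPM in oQSC, and the immediate early gene Fos at 301 and 168 CPM in oASC and 2264 and 2408 CPM in oQSC. A joint scale over all 30 libraries set these levels against cells not labelled old, although the tables were made with different annotation releases. On that scale Pax7 was at 10.5 and 10.2 CPM in oASC, 84.5 and 72.7 CPM in oQSC, 156 and 148 CPM 60 h after injury in younger cells and 1746 and 1555 CPM in uninjured younger cells. Myod1 was at 885 and 679.7, 1069.6 and 1536, 425 and 417 and 41.4 and 50.8 CPM in the same 4 groups, and Fos at 351 and 197, 2599.6 and 2843, 45.3 and 138 and 89.7 and 54.1 CPM. The oQSC libraries thus had less Pax7 and more Myod1 and Fos than uninjured younger libraries, with no overlap between the 2 groups. Because libraries are bulk, fewer cells of a type and less RNA per cell cannot be told apart. The differences below are between injured old cells and these oQSC libraries.

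Of 30099 genes tested with edgeR's quasi-likelihood F test, 12137 (40.3%) passed a Benjamini-Hochberg adjusted p of 0.05. Of those tested, 5715 (19%) rose and 6422 (21.3%) fell in oASC relative to oQSC. The 2 oASC libraries did not overlap the 2 oQSC libraries for 20649 genes (68.6%), so a lack of overlap sets no gene below apart from the rest. Changes were large as well as many, since 5013 of the genes that rose and 5833 of those that fell did so by more than 1 on the log2 scale. More than 3 on that scale separated the groups for 1385 genes that rose and 2836 that fell. The median log2 fold change over all genes tested was -0.33, with quartiles of -1.91 and 0.94. Scaling by the upper quartile moved that median to -0.77 and the split of calls to 4218 higher and 8714 lower, or 32.6% higher against 47.1% with TMM. Changes close to the median of all genes therefore depend on the scaling. Each gene list below is to be read beside that median and the 19 and 21.3% of all genes that rose and fell. A list near these values shows nothing particular to its members.

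Many of the largest rises were of genes of the dividing cell. Hist1h2ak, a replication-dependent histone gene, had 76.7 and 58.4 CPM in oASC and 0.0859 and 0.151 CPM in oQSC (log2 fold change 9.10 ± 0.55 SE, adjusted p = 1.2e-05). Uhrf1, which guides the copying of DNA methylation to the new strand, had 354 and 353 CPM in oASC and 0.658 and 1.79 CPM in oQSC (log2 fold change 8.15 ± 0.48 SE, adjusted p = 1.1e-05). Plk1, a kinase of mitotic entry and spindle assembly, had 132 and 125 CPM in oASC and 0.458 and 0.581 CPM in oQSC (log2 fold change 7.93 ± 0.27 SE, adjusted p = 6.2e-06). A lack of overlap between the groups was part of the rule that chose the 12 largest rises and falls, so it holds for each of them. E2f8, a repressor of the E2f family, rose by 7.51 on the log2 scale and Gtse1, a mitotic microtubule-binding protein, by 7.26. The histone genes Hist1h2ae, Hist1h2an and Hist1h2ap rose by 7.90, 7.37 and 7.25, but such genes are near-identical in sequence and reads can be divided among them.

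Others among the 12 largest rises do not belong to the cell cycle. Rin1, an effector of Ras and activator of Rab5, had 63.6 and 59.9 CPM in oASC and 0.229 and 0.0757 CPM in oQSC. Dok7, the muscle adaptor that activates the kinase MuSK at the neuromuscular junction, had 55.9 and 46.7 CPM in oASC and 0.172 and 0.48 CPM in oQSC. Dusp9, a phosphatase of MAP kinases, had 19.7 and 20.7 CPM in oASC and 0 and 0.252 CPM in oQSC. Log2 fold changes were 8.67 ± 0.40 for Rin1, 7.26 ± 0.41 for Dok7 and 7.22 ± 0.77 for Dusp9 (SE). Prrg4, a membrane protein with a Gla domain, completed the 12 with 7.35 ± 0.99.

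The 12 largest falls were of genes of many kinds. The chemokine gene Ccl19 had 0.122 and 0.253 CPM in oASC and 91.7 and 56.4 CPM in oQSC (log2 fold change -8.60 ± 0.43 SE, adjusted p = 6.3e-06), and its pseudogene copy Ccl19-ps3 had no count in oASC against 157 and 136 CPM in oQSC. With a floor of 3 counts over the pair of oASC libraries, Ccl19-ps3 was at least 5703-fold lower, and reads of the 2 genes may be shared because their sequences are alike. Igkv4-57, an immunoglobulin light chain segment, also had no count in oASC and 24.4 and 19.5 CPM in oQSC, at least 855-fold lower by the same floor. Nppc, the C-type natriuretic peptide, had 0.851 and 0.135 CPM in oASC and 139 and 147 CPM in oQSC. Cyp26a1, which degrades retinoic acid, had 4.13 and 2.23 CPM in oASC and 864 and 856 CPM in oQSC. Log2 fold changes were -8.18 ± 0.67 for Nppc and -8.08 ± 0.38 for Cyp26a1 (SE). Falls of -9.20 for the steroid sulfate transporter Slc10a6, -9.14 for the imprinted gene Nap1l5 and -8.22 for the alcohol dehydrogenase Adh1 were of the same order. So were those of Thrsp, a regulator of lipid synthesis (-7.93), Rhoh, a GTPase of blood cells (-7.93), and Kcne4, a potassium channel subunit (-7.82). Nctc1, a noncoding RNA of the H19 region, had 3 counts in oASC and 17.9 and 24.7 CPM in oQSC.

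Genes of DNA replication rose as a group in oASC. All 45 of 45 genes of the replication list rose, with a median log2 fold change of 2.92. Mcm5, a subunit of the helicase that unwinds replication origins, had 353 and 373 CPM in oASC and 9.47 and 7.14 CPM in oQSC (log2 fold change 5.45 ± 0.25 SE, adjusted p = 6.2e-06). Mcm2, of the same helicase, had 333 and 326 CPM in oASC and 4.55 and 6.13 CPM in oQSC (log2 fold change 5.95 ± 0.26 SE, adjusted p = 6.2e-06). Chaf1b, a chaperone that loads histones onto new DNA, rose by 5.19 ± 0.24 (SE), and Cdc45, a helicase cofactor, by 4.45 ± 0.22 (SE). The oASC and oQSC libraries did not overlap for any of these 4 genes. The smallest rise in the list, chosen after its values were seen, was that of Rrm2, the small subunit of ribonucleotide reductase, at 0.83 (598 and 589 CPM in oASC and 340.2 and 327 CPM in oQSC), and its call was lost with any 1 of the 4 libraries left out.

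Genes of G2 and mitosis rose further. Of 45 tested, 43 rose and 1 fell, with a median of 5.24. Aurka, the spindle pole kinase, had 90.5 and 82.8 CPM in oASC and 1.6 and 1.36 CPM in oQSC (log2 fold change 5.87 ± 0.25 SE, adjusted p = 6.2e-06). Cenpa, the histone that marks centromeres, had 126 and 127 CPM in oASC and 3.23 and 3.43 CPM in oQSC (log2 fold change 5.24 ± 0.24 SE, adjusted p = 6.2e-06), and Espl1, the protease that separates sister chromatids, rose by 6.75 ± 0.29 (SE). The proliferation marker Mki67 had 133 and 122 CPM in oASC and 1.29 and 2.7 CPM in oQSC, a rise of 5.99 ± 0.44 (SE), and the topoisomerase gene Top2a rose by 5.75 ± 0.46 (SE). The exceptions, named after their values were seen, were Pttg1, the securin that holds Espl1 inactive, which fell (12.1 and 14.6 CPM in oASC and 147 and 111 CPM in oQSC, -3.27 ± 0.24, SE), and Bub3, a checkpoint protein, which did not pass the test (-0.05 ± 0.21, SE).

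The promoters of genes in these 2 lists are shown because their members moved together and genes of these kinds are known to share short promoter elements. E2F factors are known to bind near replication genes, and the CHR element, with a CCAAT box beside it, is known from promoters of mitotic genes. Windows run from 250 bases before to 50 after the RefSeq start of each gene (GRCm38.p6), 5′ to 3′ on the gene's strand. Capitals mark CCAAT and the core of the CHR element, TTTGAA, and the E2F words TTCCCGC or TTGGCGC or else TTCGCGC, each on either strand, where an E2F match can share letters with another E2F or a CCAAT match. The first 3 windows are of the mitotic genes Plk1 (chr7:122159185-122159484, plus strand), Aurka (chr2:172370521-172370820, minus strand) and Cenpa (chr5:30666636-30666935, plus strand). The other 2 are of Mcm5 (chr8:75109259-75109558, plus strand) and Uhrf1 (chr17:56303087-56303386, plus strand), both of the replication list.
Plk1: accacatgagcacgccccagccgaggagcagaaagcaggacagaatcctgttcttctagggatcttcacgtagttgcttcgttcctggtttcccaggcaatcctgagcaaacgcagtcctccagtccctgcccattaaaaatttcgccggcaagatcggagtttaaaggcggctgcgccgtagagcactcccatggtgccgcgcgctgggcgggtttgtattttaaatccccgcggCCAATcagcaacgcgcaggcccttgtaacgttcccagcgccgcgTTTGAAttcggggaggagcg
Aurka: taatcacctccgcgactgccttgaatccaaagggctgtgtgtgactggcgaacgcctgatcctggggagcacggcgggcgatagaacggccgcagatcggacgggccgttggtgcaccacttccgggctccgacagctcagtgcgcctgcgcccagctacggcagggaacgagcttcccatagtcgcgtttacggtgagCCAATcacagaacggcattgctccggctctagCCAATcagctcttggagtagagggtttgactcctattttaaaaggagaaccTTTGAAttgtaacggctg
Cenpa: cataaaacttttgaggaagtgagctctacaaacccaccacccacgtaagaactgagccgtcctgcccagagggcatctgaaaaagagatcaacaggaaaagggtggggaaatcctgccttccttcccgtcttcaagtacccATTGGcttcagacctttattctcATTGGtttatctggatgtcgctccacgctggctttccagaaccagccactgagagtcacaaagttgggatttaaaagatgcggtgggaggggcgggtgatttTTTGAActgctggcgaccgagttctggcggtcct
Mcm5: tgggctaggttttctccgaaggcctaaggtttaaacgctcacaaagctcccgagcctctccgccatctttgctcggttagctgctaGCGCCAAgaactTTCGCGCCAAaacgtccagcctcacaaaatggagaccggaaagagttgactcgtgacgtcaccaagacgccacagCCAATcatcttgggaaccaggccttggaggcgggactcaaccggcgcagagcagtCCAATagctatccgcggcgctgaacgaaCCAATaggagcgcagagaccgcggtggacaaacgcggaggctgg
Uhrf1: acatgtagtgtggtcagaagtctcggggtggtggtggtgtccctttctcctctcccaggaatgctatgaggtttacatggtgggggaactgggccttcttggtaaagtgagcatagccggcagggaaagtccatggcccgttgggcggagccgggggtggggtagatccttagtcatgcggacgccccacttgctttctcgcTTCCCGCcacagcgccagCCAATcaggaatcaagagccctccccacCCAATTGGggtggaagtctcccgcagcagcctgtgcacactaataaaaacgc
The windows of Plk1, Aurka and Cenpa each hold TTTGAA and at least 1 CCAAT box and no E2F word, while those of Mcm5 and Uhrf1 hold CCAAT boxes and E2F words and no TTTGAA. Over 38 of the 45 mitotic genes with a window, 71.1% held TTTGAA, 76.3% CCAAT, 60.5% both and 15.8% an E2F word. Over 36 of the 45 replication genes, 11.1% held TTTGAA, 63.9% CCAAT, 8.33% both and 58.3% an E2F word. Among all 27018 promoter windows of the same length the shares were 18.1% for TTTGAA, 37.9% for CCAAT, 7.12% for both and 8.21% for an E2F word. Over the 3774 windows of all genes that rose, TTTGAA was in 13.3%, CCAAT in 39.4% and an E2F word in 17.5%, and over the 8934 windows of tested genes that were not called the shares were 16.8, 38 and 9.18%. A match is a run of letters in a window and was not tested as a binding site.

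**Figure D2:**
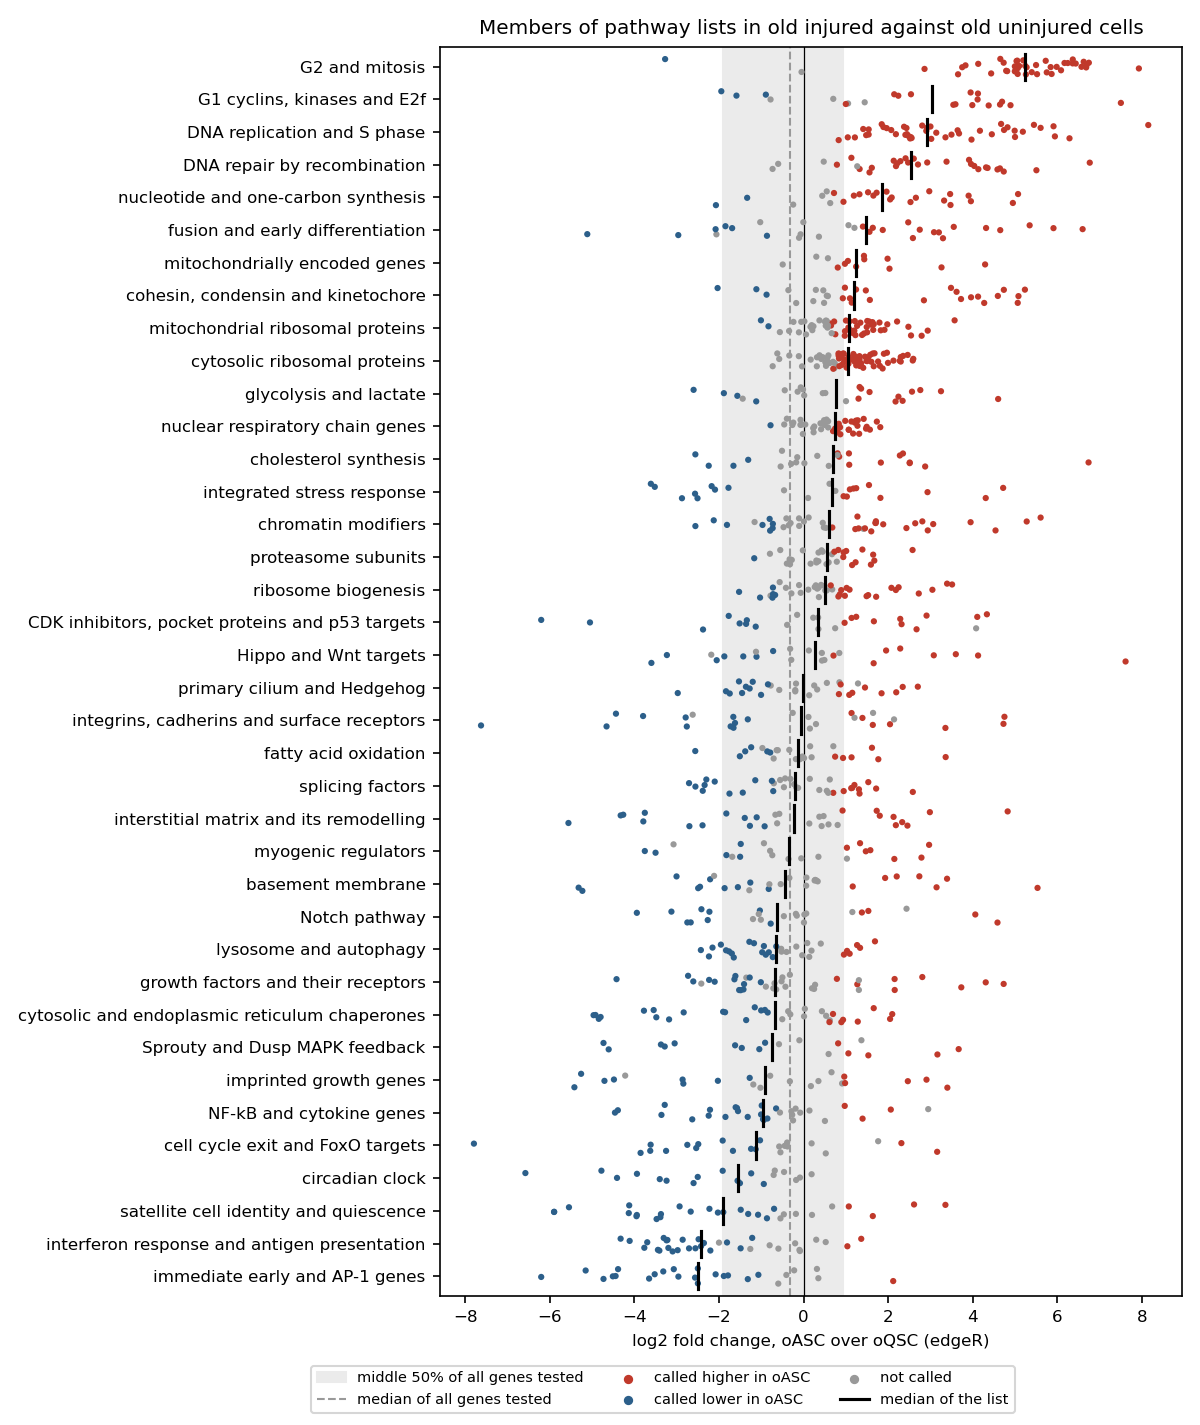
Each point is 1 gene of the pathway list named at the left, placed by its log2 fold change of oASC over oQSC, red where called higher, blue where called lower and grey where not called. Black bars are list medians, which reach 5.24 for G2 and mitosis at the top and -2.50 for immediate early genes at the bottom, and the grey band is the middle 50% of all genes tested, from -1.91 to 0.94. Genes with no count in a group are drawn at their fitted value.

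Genes that drive cells into the cycle rose in the main. Of 22 G1 cyclins, kinases and E2f genes, 15 rose and 3 fell, with a median of 3.04. Cyclin D1 (Ccnd1), which starts G1 progression, had 273 and 249 CPM in oASC and 14.4 and 15.7 CPM in oQSC (log2 fold change 4.12 ± 0.41 SE, adjusted p = 0.0001). Ccne1, the cyclin of the G1 to S transition, had 102 and 95 CPM in oASC and 4.67 and 6.61 CPM in oQSC (log2 fold change 4.13 ± 0.25 SE, adjusted p = 1.2e-05). Their groups did not overlap, nor did those of E2f3, an activator E2f (4.38 ± 0.24, SE), and Skp2, the ligase subunit that marks the inhibitor Cdkn1b for destruction (3.54 ± 0.22, SE). The 3 that fell, named after their values were seen, were E2f6 (-1.95), E2f5 (-1.59) and Tfdp2 (-0.89), the first 2 of which are known as repressors. The call of Tfdp2 was lost with any 1 library left out.

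Inhibitors of the cycle and p53 targets split, with 10 higher and 8 lower of 25 and a median of 0.35, which became -0.09 with upper quartile scaling. Btg2, an antiproliferative gene induced by p53 and by stress, had 25.9 and 29.8 CPM in oASC and 2163 and 1946 CPM in oQSC (log2 fold change -6.20 ± 0.29 SE, adjusted p = 6.2e-06). Gadd45a, a stress-induced growth arrest gene, had 13.4 and 12 CPM in oASC and 396 and 448 CPM in oQSC (log2 fold change -5.05 ± 0.23 SE, adjusted p = 6.2e-06). Both were lower in every oASC library than in any oQSC library. The p53 targets Ccng1, a cyclin (2.91 ± 0.20, SE), and Bbc3, the proapoptotic Puma (4.11 ± 0.29, SE), rose. Cdkn1a, the p21 inhibitor, had 483 and 474 CPM in oASC and 1305 and 1118 CPM in oQSC (log2 fold change -1.34 ± 0.21 SE, adjusted p = 0.0013). Cdkn1b, the p27 inhibitor of quiescent cells, had 15.5 and 16.3 CPM in oASC and 54.4 and 36.3 CPM in oQSC (log2 fold change -1.51 ± 0.24 SE, adjusted p = 0.0014). Cdkn2a, the locus of p16 and of Arf that is known to accumulate with age, was near its limit of detection, with 0.382 and 0.608 CPM in oASC and 2 counts in all in oQSC, and did not pass the test (adjusted p = 0.064). Cdkn1c, the p57 inhibitor, had 10.3 and 12.4 CPM in oASC and 7.33 and 10.4 CPM in oQSC and did not pass it either (adjusted p = 0.39).

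Genes that repair, package and segregate the copied genome rose with those of replication. In recombination repair 26 of 30 rose and none fell (24 and 2 with upper quartile scaling), with a median of 2.54. Brca1, which directs broken ends into recombination, had 47.4 and 45.7 CPM in oASC and 0.2004 and 0.631 CPM in oQSC (log2 fold change 6.77 ± 0.45 SE, adjusted p = 1.6e-05), and the exonuclease Exo1 and the checkpoint kinase Chek1 rose by 5.51 and 3.96. Fanca, of the Fanconi anaemia complex, rose by 4.65. Of 30 genes of cohesin, condensin and kinetochore, 19 rose and 3 fell (18 and 5 with upper quartile scaling), with a median of 1.19. Condensin subunits were among those that rose, with Smc2 at 102 and 105 CPM in oASC and 5.41 and 5.28 CPM in oQSC (log2 fold change 4.27 ± 0.22 SE, adjusted p = 6.3e-06) and Ncapg and Ncaph higher by 5.24 and 3.62. The genes that fell, named after their values were seen, load or release cohesin or belong to it: Nipbl (-2.03), Wapl (-1.12) and Smc1a (-0.87), the last of which lost its call without either oASC library.

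Among replication-dependent histones, a list added after results were known, 33 of 47 rose and 1 fell (31 and 4 with upper quartile scaling), with a median of 3.58. Nuclear pore, lamin and import genes, added likewise, rose in 25 of 32 and fell in 2 (1 to 2 with any 1 of the 4 libraries left out), with a median of 1.34. Chromatin modifiers rose in 19 of 40 and fell in 8 (3 to 7 with any 1 library left out), with a median of 0.60, and with upper quartile scaling 17 were higher and 12 lower. Hells, a remodeller needed for DNA methylation, had 69.2 and 62.2 CPM in oASC and 1.43 and 1.26 CPM in oQSC (log2 fold change 5.61 ± 0.25 SE, adjusted p = 6.2e-06). The maintenance methyltransferase Dnmt1 had 229 and 229 CPM in oASC and 7.07 and 12.6 CPM in oQSC (log2 fold change 4.54 ± 0.31 SE, adjusted p = 1.7e-05). In both genes the oASC pair lay above the oQSC pair. Hmga2 and Hmgb2, nonhistone proteins that bend or open chromatin, rose by 5.28 and 2.81. Chosen after their values were seen, the methylcytosine oxidase Tet2 fell by 2.56 on the log2 scale and the deacetylase Hdac4 fell by 2.12.

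Genes that mark satellite cells and their quiescence fell. Of 29 tested, 20 fell and 4 rose (2 to 4 with any 1 library left out), and the median was -1.90. Pax7, at the levels given above, was lower (log2 fold change -2.93 ± 0.21 SE, adjusted p = 2.5e-05). Calcr, the calcitonin receptor that keeps satellite cells quiescent, had 4.97 and 4.07 CPM in oASC and 271 and 269 CPM in oQSC (log2 fold change -5.90 ± 0.31 SE, adjusted p = 7.4e-06). Spry1, a feedback inhibitor of growth factor signalling needed for return to quiescence, had 16.8 and 12.6 CPM in oASC and 119.9 and 185 CPM in oQSC (log2 fold change -3.37 ± 0.28 SE, adjusted p = 4.4e-05). No oASC library reached an oQSC library for Pax7, Calcr or Spry1.

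Pax3, the paralogue of Pax7, had 1.04 and 1.74 CPM in oASC and 16 and 15 CPM in oQSC (log2 fold change -3.48 ± 0.32 SE, adjusted p = 7.6e-05). The extracellular peroxidase Gpx3 fell by 5.90 on the log2 scale, the teneurin Tenm4 fell by 4.13 and Chrdl2, a BMP antagonist, fell by 5.55. Cell surface markers used to sort satellite cells did not move alike. Vcam1 had 592 and 655 CPM in oASC and 2154 and 2491 CPM in oQSC (log2 fold change -1.90 ± 0.26 SE, adjusted p = 0.00062), and Cd34 had 142 and 142 CPM in oASC and 356 and 349 CPM in oQSC (log2 fold change -1.31 ± 0.19 SE, adjusted p = 0.00083). Itga7, the laminin-binding integrin alpha chain, rose instead, with 798 and 796 CPM in oASC and 67.2 and 88.5 CPM in oQSC (log2 fold change 3.36 ± 0.25 SE, adjusted p = 2.6e-05). The other genes of the list that rose, named after their values were seen, were the syndecan Sdc3 (2.61), M-cadherin (Cdh15, 1.64) and Gas1 (1.07). Cdh15 lost its call without the first oQSC library, and Gas1 without the first oASC library or either oQSC library.

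Notch signalling passes from ligands on one cell to receptors on the next, and the receptor's cleaved tail turns on Hes and Hey genes. Of 24 Notch pathway genes tested, 4 rose and 9 fell, with a median of -0.62. The ligands differed in direction: Dll1 had 97.6 and 71.2 CPM in oASC and 2.35 and 4.65 CPM in oQSC (log2 fold change 4.59 ± 0.37 SE, adjusted p = 4.2e-05), Jag2 rose by 4.06 ± 0.38 (SE), and Jag1 had 9.45 and 9.79 CPM in oASC and 97.7 and 70.2 CPM in oQSC (log2 fold change -3.12 ± 0.28 SE, adjusted p = 6.3e-05). The target Heyl had 19.9 and 12.9 CPM in oASC and 191 and 313 CPM in oQSC (log2 fold change -3.94 ± 0.43 SE, adjusted p = 0.00018). Of the receptors, neither Notch1 (57.3 and 40.9 CPM in oASC and 46.8 and 64.5 CPM in oQSC, adjusted p = 0.58) nor Notch3 (35 and 37.7 CPM in oASC and 41.2 and 59.2 CPM in oQSC, adjusted p = 0.16) passed the test. The oASC and oQSC libraries overlapped for Notch1 and for no other gene of the pathway named here. Hes6 (1.53) and Maml3 (1.38), named after their values were seen, were the other genes that rose.

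The myogenic regulators showed both directions, with 7 higher and 5 lower of 21 (6 and 10 with upper quartile scaling, 7 and 8 with DESeq2) and a median of -0.36, near that of all genes. Myf5, an early determination factor, had 231 and 224 CPM in oASC and 734 and 539 CPM in oQSC (log2 fold change -1.49 ± 0.24 SE, adjusted p = 0.0016). Myod1, at the levels given above, did not pass the test (-0.74 ± 0.34 SE, adjusted p = 0.12), although both oASC libraries lay below both oQSC libraries, and it did pass with DESeq2 (adjusted p = 0.048). Myog, the factor of terminal differentiation, had 99 and 119 CPM in oASC and 23.5 and 25.8 CPM in oQSC (log2 fold change 2.15 ± 0.51 SE, adjusted p = 0.01), a call lost without the first or the second oQSC library (adjusted p = 0.076 and 0.059). Tcf3, the E protein that pairs with Myod1, rose by 2.97 ± 0.24, while Tcf4, a related E protein, fell by 1.82 ± 0.20 on the log2 scale (SE). Id3, an inhibitor of such pairs, had 277 and 201 CPM in oASC and 2697 and 2715 CPM in oQSC (log2 fold change -3.50 ± 0.32 SE, adjusted p = 7.6e-05), and Msc, a repressor that competes for Myod1 sites, had a log2 fold change of -3.75 ± 0.34 (SE).

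Genes of fusion and early differentiation rose in 16 of 30 and fell in 6, with a median of 1.48. Myh3, the embryonic myosin heavy chain, had 17.4 and 22.2 CPM in oASC and 0.515 and 0.454 CPM in oQSC (log2 fold change 5.35 ± 0.42 SE, adjusted p = 3.5e-05). Myomaker (Mymk), a membrane protein needed for fusion, had 22.2 and 31.5 CPM in oASC and 1.03 and 3.51 CPM in oQSC (log2 fold change 3.55 ± 0.53 SE, adjusted p = 0.00092). Myomixer (Mymx), its partner in fusion, had 6.29 and 7.6 CPM in oASC and 0.83 and 0.581 CPM in oQSC (log2 fold change 3.30 ± 0.49 SE, adjusted p = 0.0009). In all 3 the oASC pair was the higher. Subunits of the acetylcholine receptor were higher, with Chrnd at 81.3 and 86.8 CPM in oASC and 1.35 and 1.44 CPM in oQSC (log2 fold change 5.91 ± 0.35 SE, adjusted p = 1.1e-05) and Chrna1 higher by 3.20 ± 0.20 (SE). In contrast Musk, the kinase that clusters those receptors, had 83 and 83.2 CPM in oASC and 3331 and 2427 CPM in oQSC (log2 fold change -5.12 ± 0.30 SE, adjusted p = 1.1e-05). The sarcoglycan gene Sgca fell by 2.96 ± 0.22 on the log2 scale (SE).

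**Figure D3:**
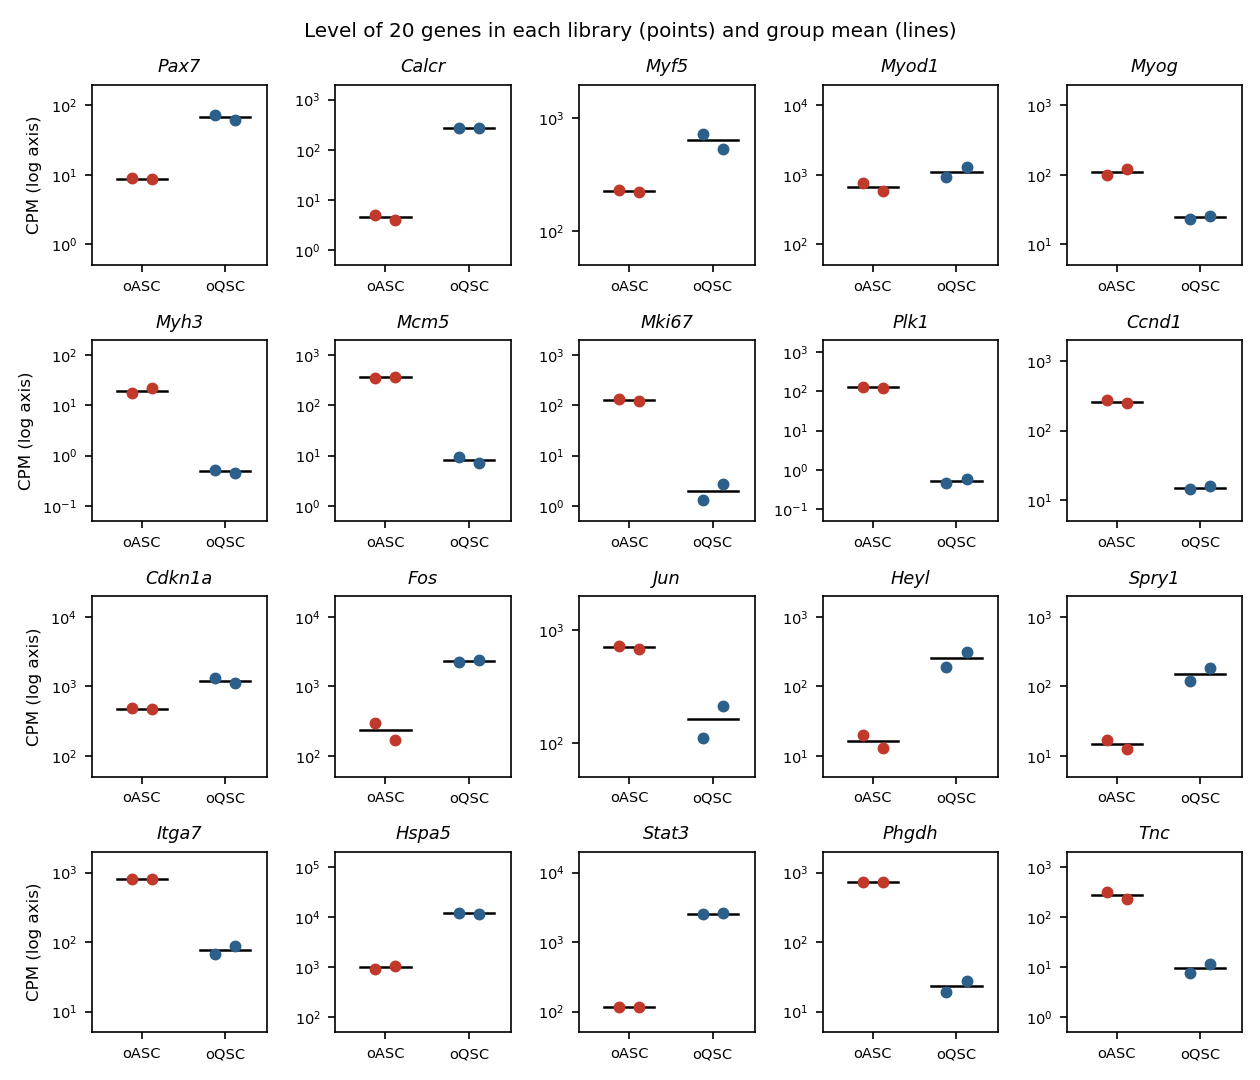
CPM of 20 genes on log axes in the 2 oASC libraries (red) and the 2 oQSC libraries (blue), with lines at the group means. For all 20 genes the 2 groups do not overlap, as for 68.6% of all genes tested, and Myod1 is the one of them that did not pass the test.

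Immediate early genes, which encode short-lived transcripts induced within minutes of a stimulus, fell in 19 of 25 and rose in 1 (1 to 2 with any 1 library left out), with a median of -2.50. Fos, at the levels given above, had a log2 fold change of -3.32 ± 0.33 (SE, adjusted p = 0.00011). Egr2, a zinc finger factor, had 6.11 and 8.88 CPM in oASC and 139 and 203 CPM in oQSC (log2 fold change -4.51 ± 0.29 SE, adjusted p = 1.5e-05). Nr4a3, an orphan nuclear receptor, and Maff, a small Maf factor, fell (log2 fold changes -5.15 and -3.65). Myc, which is not in that list, had 383 and 420.0 CPM in oASC and 2391 and 2486 CPM in oQSC (log2 fold change -2.60 ± 0.26 SE, adjusted p = 0.00012). Jun was the gene that rose, with 723 and 678 CPM in oASC and 111 and 211 CPM in oQSC (log2 fold change 2.12 ± 0.32 SE, adjusted p = 0.00098).

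Feedback inhibitors of MAP kinase signalling fell in 9 of 18 and rose in 5 (3 to 5 with any 1 library left out), with a median of -0.75, and with upper quartile scaling 3 were higher and 10 lower. Dusp1, a phosphatase induced with the immediate early genes, had 152 and 135 CPM in oASC and 3991 and 3626 CPM in oQSC (log2 fold change -4.73 ± 0.34 SE, adjusted p = 2.4e-05). Like Spry1, Spry4 fell by 3.05 on the log2 scale, whereas the phosphatase Dusp4 rose by 3.67. Chaperones fell in 16 of 32 and rose in 8 (4 to 5 with any 1 library left out), with a median of -0.68, and with upper quartile scaling 4 were higher and 19 lower. Hspa5, the main chaperone of the endoplasmic reticulum, had 938 and 1078 CPM in oASC and 12171 and 11348 CPM in oQSC (log2 fold change -3.54 ± 0.29 SE, adjusted p = 4.5e-05). Hspb1, a small heat shock protein, had 108 and 108 CPM in oASC and 2862 and 3318 CPM in oQSC (log2 fold change -4.84 ± 0.27 SE, adjusted p = 8.7e-06). Neither gene's groups overlapped, and Xbp1, a factor of the unfolded protein response, and Cryab, a small heat shock protein of muscle, fell (log2 fold changes -3.77 and -3.48). Chaperonin subunits Cct2 (2.1) and Cct6a (1.66), named after their values were seen, were among those that rose.

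NF-kB and cytokine genes fell in 18 of 30 (11 to 16 with any 1 library left out) and rose in 3, with a median of -0.95. Stat3, which carries interleukin 6 signals to the nucleus, had 116 and 116 CPM in oASC and 2511 and 2588 CPM in oQSC (log2 fold change -4.46 ± 0.26 SE, adjusted p = 1e-05). Osmr, the oncostatin M receptor that acts through Stat3, had 39.4 and 42.3 CPM in oASC and 839.7 and 875 CPM in oQSC (log2 fold change -4.39 ± 0.25 SE, adjusted p = 1e-05). Il6 itself had 3.82 and 2.89 CPM in oASC and 38.9 and 30.1 CPM in oQSC (log2 fold change -3.36 ± 0.27 SE, adjusted p = 3.8e-05). In these 3 genes each oASC library was below each oQSC library, and Nfkb1, a subunit of NF-kB, likewise fell by 3.28 on the log2 scale. Nfkb2 (2.06), Socs1 (1.40) and Relb (0.97) rose and were named after their values were seen, and Relb lost its call without either oASC library or the first oQSC library.

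Interferon response and antigen presentation genes fell in 22 of 33 and rose in 2 (0 to 2 with any 1 library left out), with a median of -2.42. Irf9, the DNA-binding part of the interferon-activated complex, had 8.2 and 7.97 CPM in oASC and 94.6 and 77.3 CPM in oQSC (log2 fold change -3.41 ± 0.21 SE, adjusted p = 1.3e-05). Its targets Ifit1, Ifit3 and Ifi27 fell (log2 fold changes -4.11, -4.33 and -3.24). The class I gene H2-K1 had 144 and 144 CPM in oASC and 1096 and 1174 CPM in oQSC, and the 2 genes that rose were Rsad2 (1.36) and Tap2 (1.04), all 3 named after their values were seen. Rsad2 lost its call without the second oASC library, and Tap2 without either oASC library or the first oQSC library.

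The clock moved in 1 direction among called genes, with 13 of 19 circadian genes lower, none higher and a median of -1.56. Rora, an activator of the clock gene Arntl, had 13.6 and 15.5 CPM in oASC and 314 and 307 CPM in oQSC (log2 fold change -4.41 ± 0.22 SE, adjusted p = 6.3e-06). Per3 and Bhlhe40, repressors of the clock, fell (log2 fold changes -4.78 and -3.24). The time of day of collection is not given in the sources used here, so it and injury cannot be told apart for these genes. Targets of FoxO and of cell cycle exit fell in 13 of 23 and rose in 2, with a median of -1.13. Depp1, a FoxO target that regulates autophagy, had 0.0695 and 0.0675 CPM in oASC and 17.7 and 14.1 CPM in oQSC (log2 fold change -7.80 ± 0.47 SE, adjusted p = 1.2e-05). The autophagosome proteins Map1lc3a and Map1lc3b fell (log2 fold changes -3.63 and -3.62), while Fbxo32, the muscle atrophy ligase, rose by 3.16.

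Lysosome and autophagy genes fell in 16 of 31 (10 to 14 with any 1 library left out) and rose in 6 (3 to 5), with a median of -0.65, and with upper quartile scaling 4 were higher and 20 lower. The protease Ctsb had 241 and 270.0 CPM in oASC and 974 and 1008 CPM in oQSC, a log2 fold change of -1.96 ± 0.21 (SE). The membrane protein Lamp2 and the autophagy regulator Becn1 fell (log2 fold changes -2.15 and -1.76).

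Cytosolic ribosomal protein genes rose in 54 of 77 and none fell, with a median of 1.06. The count was 31 to 39 with any 1 library left out, and upper quartile scaling gave 34 higher and 4 lower with a median of 0.62. Rps20 had 398 and 401 CPM in oASC and 65 and 67.1 CPM in oQSC (log2 fold change 2.60 ± 0.26 SE, adjusted p = 0.00011), and Rps12, Rps10 and Rpl39 rose by 2.58, 2.28 and 2.30. Pseudogene copies can share reads with these genes, and processed pseudogenes as a class took 2.67 and 2.72% of counts in oASC and 1.31 and 1.3% in oQSC. Ribosome biogenesis genes rose in 17 of 40 (10 to 11 with any 1 library left out) and fell in 6 (1 to 4), with a median of 0.50 that was 0.06 under upper quartile scaling. The processing factors Rrp12 and Bop1 rose by 3.51 and 3.39, and Mybbp1a, a nucleolar protein, had 560.2 and 567 CPM in oASC and 55.8 and 80.5 CPM in oQSC (log2 fold change 3.05 ± 0.32 SE, adjusted p = 0.00015). Bms1, a GTPase of the small subunit, rose by 2.18. Translation factors rose in 16 of 37 (10 to 11) and fell in 5 (2 to 4), and aminoacyl tRNA synthetases rose in 12 of 21 (7 to 9) and fell in 4 (1 to 3), where the brackets give counts with any 1 library left out. Both lists were added after results were known, and upper quartile scaling gave 10 higher and 10 lower for the factors and 7 and 6 for the synthetases.

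Mitochondrial genes rose from both genomes. Of 13 genes encoded in mitochondria, 10 rose and none fell, with a median of 1.24. The complex I gene mt-Nd1 had 4393 and 4978 CPM in oASC and 1186 and 1103 CPM in oQSC (log2 fold change 2.03 ± 0.29 SE, adjusted p = 0.00076), and mt-Nd3, mt-Nd4l and mt-Nd5 rose by 4.29, 3.26 and 1.99. Nuclear genes of the respiratory chain rose in 25 of 47 (15 to 21 with any 1 library left out), and 1 fell (0 to 1), with a median of 0.75. Atp5g3, a subunit of ATP synthase, had 167 and 201 CPM in oASC and 58.7 and 51.8 CPM in oQSC (log2 fold change 1.73 ± 0.21 SE, adjusted p = 0.00034), and Sdhd, of complex II, rose by 1.81. Mitochondrial ribosomal proteins rose in 37 of 58 and fell in 2 (0 to 2 with any 1 library left out), with a median of 1.07 and Mrpl34 the highest at 3.57 ± 0.27 (SE). With upper quartile scaling the same lists gave 7 higher and 1 lower for mitochondrially encoded genes, 15 and 5 for the nuclear respiratory chain and 29 and 5 for mitochondrial ribosomal proteins.

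Pathways that supply building blocks rose in part. Of 26 genes of nucleotide and one-carbon synthesis, 20 rose and 2 fell, with a median of 1.85. Phgdh, the first enzyme of serine synthesis, had 733 and 726 CPM in oASC and 19.4 and 27.8 CPM in oQSC (log2 fold change 4.95 ± 0.32 SE, adjusted p = 1.4e-05). Cad, the enzyme that starts pyrimidine synthesis, had 242 and 258 CPM in oASC and 5.67 and 9.14 CPM in oQSC (log2 fold change 5.07 ± 0.29 SE, adjusted p = 9.4e-06). Gart, of purine synthesis, and the mitochondrial folate enzyme Mthfd1l rose by 3.48 and 3.96, and no oASC library overlapped an oQSC library in any of the 4. The exceptions, named after their values were seen, were Prps1 (-2.07) and Ctps2 (-1.33). Asns, the asparagine synthetase of the amino acid stress response, had 111 and 117 CPM in oASC and 5.27 and 3.38 CPM in oQSC (log2 fold change 4.72 ± 0.28 SE, adjusted p = 1.1e-05). The integrated stress response list that holds it was split, 10 higher and 8 lower of 22 with a median of 0.68, and Ppp1r15a, which reverses the response, fell to 224 and 239.8 CPM in oASC against 2689 and 2979 CPM in oQSC (log2 fold change -3.61 ± 0.27 SE, adjusted p = 2.6e-05). Vldlr, a lipoprotein receptor, and Cebpg, a leucine zipper factor, fell (log2 fold changes -3.52 and -2.88).

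Energy pathways were mixed. Glycolysis and lactate genes rose in 11 of 24 and fell in 4, with a median of 0.76. Tpi1, triosephosphate isomerase, had 618 and 651 CPM in oASC and 88.3 and 98.8 CPM in oQSC (log2 fold change 2.76 ± 0.24 SE, adjusted p = 5.1e-05), Gpi1, the isomerase upstream of it, rose by 2.34, and Gapdh, which has many pseudogene copies, by 3.25. The neuronal type glucose carrier Slc2a3 fell by 2.60. Fatty acid oxidation had 6 higher and 6 lower of 24 (2 to 4 lower with any 1 library left out) and a median of -0.13, and with upper quartile scaling 4 higher and 12 lower and a median of -0.58. The pathway's called shares, 25% in each direction, were near the 19 and 21.3% of all genes tested. Its dehydrogenases differed, since Acadvl, for very long chains, had 56.3 and 46.9 CPM in oASC and 305 and 304 CPM in oQSC (log2 fold change -2.56 ± 0.23 SE, adjusted p = 6.3e-05) and Acads, for short chains, had 34.7 and 34.1 CPM in oASC and 2.46 and 4.22 CPM in oQSC (log2 fold change 3.36 ± 0.31 SE, adjusted p = 7.4e-05). The carnitine transferases Cpt1a and Cpt2 rose by 1.62 and 1.77. Cholesterol synthesis rose in 11 of 24 and fell in 4 with a median of 0.70, and with upper quartile scaling in 9 and 8 with a median of 0.26. The prenyl synthase Fdps had 127 and 142 CPM in oASC and 22 and 25.1 CPM in oQSC (log2 fold change 2.51 ± 0.23 SE, adjusted p = 6.5e-05). Ebp, an isomerase later in the sterol pathway, fell by 2.24 on the log2 scale. Proteasome subunits rose in 12 of 31 (7 to 10 with any 1 library left out) and fell in 1 (0 to 1), with a median of 0.54 that was 0.10 under upper quartile scaling, which gave 7 higher and 6 lower. The subunits Psmd3, Psmd13, Psma4 and Psma6 rose by 2.58, 1.65, 1.59 and 1.39.

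The matrix around a satellite cell changed gene by gene. Basement membrane genes rose in 7 of 28 and fell in 10 (6 to 10 with any 1 library left out), with a median of -0.44. Lama5 and Lama3 encode alpha chains of laminin, and Lama5 had 69.6 and 61.3 CPM in oASC and 8.59 and 11 CPM in oQSC (log2 fold change 2.74 ± 0.23 SE, adjusted p = 4.9e-05). Lama3 had 0.99 and 0.827 CPM in oASC and 30.3 and 38.1 CPM in oQSC (log2 fold change -5.23 ± 0.27 SE, adjusted p = 6.9e-06). Perlecan (Hspg2), a proteoglycan of basement membranes, had 160.0 and 149.6 CPM in oASC and 13.1 and 21.8 CPM in oQSC (log2 fold change 3.15 ± 0.30 SE, adjusted p = 9.3e-05). The groups were apart for all 3 genes, in opposite directions for the 2 laminin chains. Npnt, a ligand of integrin alpha 8, rose by 5.53, and Frem1, an extracellular matrix protein of epithelia, fell by 5.32. The collagen Col15a1 had 0.347 and 0.422 CPM in oASC and 2.12 and 4.09 CPM in oQSC (log2 fold change -3.0 ± 0.59 SE, adjusted p = 0.0038).

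Interstitial matrix genes rose in 9 of 30 and fell in 12, with a median of -0.22. Tnc, tenascin C of regenerating muscle, had 318 and 228 CPM in oASC and 7.73 and 11.5 CPM in oQSC (log2 fold change 4.83 ± 0.30 SE, adjusted p = 1.3e-05). Thbs2, an antiangiogenic thrombospondin, had 20.7 and 16.7 CPM in oASC and 765 and 999.7 CPM in oQSC (log2 fold change -5.56 ± 0.29 SE, adjusted p = 6.8e-06). Dcn, the proteoglycan decorin, had 24.9 and 18.4 CPM in oASC and 477 and 390.4 CPM in oQSC (log2 fold change -4.33 ± 0.26 SE, adjusted p = 1.2e-05). Tnc was thus higher and Thbs2 and Dcn lower in both oASC libraries, and the protease inhibitor Timp3 fell by 3.79 on the log2 scale. Col1a1 did not pass the test, with 17.9 and 17.1 CPM in oASC and 8.22 and 11.8 CPM in oQSC (adjusted p = 0.16). Dcn is also a fibroblast marker, and the sum of 14 fibro-adipogenic and fibroblast markers was 706 and 715 CPM in oASC and 1851 and 2628 CPM in oQSC.

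Adhesion genes rose in 7 of 26 and fell in 11, with a median of -0.07. N-cadherin (Cdh2), which anchors satellite cells to the fibre, had 92.8 and 98.5 CPM in oASC and 2.78 and 4.42 CPM in oQSC (log2 fold change 4.73 ± 0.29 SE, adjusted p = 1.2e-05). T-cadherin (Cdh13), which has no cytoplasmic tail, had 43.3 and 46.3 CPM in oASC and 665 and 579 CPM in oQSC (log2 fold change -3.80 ± 0.22 SE, adjusted p = 1e-05). Cdh4, the retinal cadherin, fell by 4.66. Cdh1, the epithelial cadherin, chosen after its values were seen, had no count in oASC and 44 counts in oQSC.

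Growth factors and receptors rose in 8 of 36 and fell in 13 (7 and 18 with upper quartile scaling), with a median of -0.67. The ligand Igf1, a growth factor of muscle, had 1.09 and 1.15 CPM in oASC and 27.4 and 20.9 CPM in oQSC (log2 fold change -4.42 ± 0.38 SE, adjusted p = 5.3e-05). Igfbp3, which binds it, had 114 and 93 CPM in oASC and 3.06 and 4.7 CPM in oQSC (log2 fold change 4.73 ± 0.29 SE, adjusted p = 1.2e-05). These neighbours in the same pathway moved in opposite directions in all libraries. The FGF receptor Fgfr1 fell by 2.73 and Met, the receptor of hepatocyte growth factor, rose by 2.16. Igf2 did not pass the test (-0.32 ± 0.23 SE, adjusted p = 0.28).

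Hippo and Wnt genes were split, 8 higher and 7 lower of 24, with a median of 0.28 that became -0.17 under upper quartile scaling, with 6 higher and 9 lower. The listed Cyr61 and Ctgf were not found under those names and Rspo3 was not tested, so they do not enter these counts. Tead2, a partner of Yap1, had 23.5 and 16.5 CPM in oASC and 1.17 and 1.11 CPM in oQSC (log2 fold change 4.13 ± 0.45 SE, adjusted p = 0.00017), and Tead4, another, had 10.9 and 11.5 CPM in oASC and 0.115 and 0 CPM in oQSC (log2 fold change 7.62 ± 0.76 SE, adjusted p = 0.00011). Lats1, the kinase that restrains Yap1, and Axin2, a Wnt target, rose by 3.08 and 3.6. Cytoskeletal genes, a list added after results were known, rose in 24 of 40 and fell in 7 (18 and 10 with upper quartile scaling), with a median of 0.98. Axon guidance receptors and ligands, added likewise, rose in 17 of 53 and fell in 16 (9 to 11 with any 1 library left out), with a median of 0.22 that became -0.22 under upper quartile scaling.

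Imprinted genes rose in 5 of 22 (3 to 5 with any 1 library left out) and fell in 8, with a median of -0.90, and with upper quartile scaling 3 were higher and 12 lower. Meg3 and Rian, noncoding RNAs of the Dlk1 to Dio3 domain, fell together. Meg3 had 10.1 and 8.34 CPM in oASC and 318 and 391 CPM in oQSC (log2 fold change -5.26 ± 0.37 SE, adjusted p = 2e-05), and Rian had 4.78 and 4.31 CPM in oASC and 142 and 96.1 CPM in oQSC (log2 fold change -4.71 ± 0.28 SE, adjusted p = 1.1e-05). H19, a noncoding RNA next to Igf2, had 12.5 and 16.5 CPM in oASC and 2.12 and 1.74 CPM in oQSC (log2 fold change 2.91 ± 0.38 SE, adjusted p = 0.00045). Mest rose by 2.47, and Sgce, a sarcoglycan, fell by 2.86. Primary cilium and Hedgehog genes had 9 higher and 10 lower of 30 with a median of -0.02, which was 0.01 with RLE size factors and -0.46 with upper quartile scaling, where 6 were higher and 14 lower. The Hedgehog effectors Gli3 and Gli2 differed, with log2 fold changes of 2.19 for Gli3 and -2.98 for Gli2. The ciliary motor Kif3b rose by 2.70, and the GTPase Arl13b fell by 1.53. Splicing factors had 10 higher (6 to 7 with any 1 library left out) and 11 lower of 34 with a median of -0.20 (7 and 17 with upper quartile scaling), and the kinases Clk1 and Clk4, the factor Srsf5 and Hnrnpa3 fell (log2 fold changes -2.71, -2.30, -2.38 and -2.56). Hox genes, the last list added after results were known, had 3 higher and 7 lower (3 to 6 with any 1 library left out) of 33. That is 9.09 and 21.2%, against 19 and 21.3% of all genes tested.

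Markers of other cells were present and differed between the groups, and their part in the results above was not tested. Summed over its list, endothelial markers stood at 38.5 and 30.1 CPM in oASC and 141 and 177 CPM in oQSC, and Schwann and glial markers at 144 and 116 CPM in oASC and 639.7 and 685 CPM in oQSC. Of the Schwann sum, Pmp22 gave 69.3 and 52.2 CPM in oASC and 484 and 458 CPM in oQSC. Egr2, also an immediate early gene, gave 6.11 and 8.88 CPM in oASC and 139 and 203 CPM in oQSC. Erythroid markers, which include 4 globin genes, summed to 7.23 and 6.18 CPM in oASC and 210.4 and 192 CPM in oQSC. Tenocyte markers summed to 29.96 and 23.4 CPM in oASC and 1703 and 1658 CPM in oQSC, of which Chodl alone gave 11.2 and 10.1 CPM in oASC and 1591 and 1534 CPM in oQSC. In oQSC that sum was thus mostly of 1 gene, and which cells Chodl came from was not tested. Fmod and Mkx of the same list had 39.7 and 50.3 CPM and 34.9 and 38.3 CPM in oQSC. The endothelial, Schwann, erythroid and tenocyte sums were each lower in both oASC libraries. Neutrophil, lymphocyte and adipocyte markers summed to at most 2.16, 1.11 and 4.36 CPM in any oASC library and 19.8, 6.41 and 19.4 CPM in any oQSC library. Among their defining genes Elane, Camp, Ltf, Cd8a and Cfd had no count in oASC. Macrophage and monocyte markers summed to 81.8 and 101 CPM in oASC and 149 and 120.0 CPM in oQSC, with 3 genes higher and 3 lower of 14 (1 to 2 lower with any 1 library left out). Pericyte and smooth muscle markers summed to 271 and 260.0 CPM in oASC and 294 and 318 CPM in oQSC. Of the genes tested, 10 of 14 endothelial, 8 of 14 fibroblast, 8 of 12 pericyte, 7 of 11 neutrophil, 7 of 8 tenocyte, 6 of 10 Schwann and 5 of 8 erythroid markers fell, where 21.3% of all genes did. Chodl is among the tenocyte markers counted there. In the fibroblast, tenocyte and Schwann lists, the markers that rose were named after their values were seen. They were the collagens Col3a1 (1.73) and Col1a2 (2.18) of the fibroblast list, Scx (3.66) of the tenocyte list and Ngfr of the Schwann list. Ngfr had 64.6 and 51 CPM in oASC and 0.573 and 2.75 CPM in oQSC (log2 fold change 5.10 ± 0.59 SE, adjusted p = 0.00024). The call of Col1a2 was lost without either oQSC library. Of 16 adult myofibre markers 2 rose and 1 fell (7 and 3 with only the 4 oASC and oQSC libraries in the fit). They summed to 777 and 822 CPM in oASC and 188 and 215 CPM in oQSC, of which the enolase Eno3 gave 454 and 476 CPM in oASC and 19.3 and 19 CPM in oQSC.

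The injury response of old cells was last set against that of cells not labelled old, as the difference between oASC minus oQSC and 60 h minus uninjured in a fit over all 30 libraries. Both injured groups were taken at the same time after injury by their labels, 2.5 days and 60 h. Of 28823 genes tested, 2098 (7.28%) differed in response at an adjusted p of 0.05, and leaving out any 1 of the 8 libraries gave 681 to 1100. With only the 8 libraries of these groups in the fit 8003 were called, and DESeq2 called 4161. The levels below are on the scale of the joint fit, whose tables came from different annotation releases, and table, age and any handling that went with them cannot be told apart.

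Cdkn1a had the largest difference to pass the test among 31 genes chosen for this comparison. It stood at 563 and 557 CPM in oASC and 1499 and 1319.7 CPM in oQSC, and at 383 and 421 CPM 60 h after injury and 11.7 and 6.65 CPM in uninjured younger cells. The difference in response was -6.79 ± 1.21 on the log2 scale (SE, adjusted p = 0.0017), and the group with the lowest levels was the uninjured younger one. Hspg2 stood at 187 and 176 CPM in oASC and 15.1 and 25.8 CPM in oQSC, and at 321 and 380.3 CPM 60 h after injury and 689 and 583 CPM in uninjured younger cells. Its response differed by 4.01 ± 0.61 (SE, adjusted p = 0.00053), with the oQSC libraries lowest. Cdkn1a and Hspg2 passed the test whichever of the 8 libraries was left out.

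Calcr, Ccnd1 and Fos also passed the test with all libraries. Calcr stood at 5.79 and 4.78 CPM in oASC and 311 and 317 CPM in oQSC, and at 13.8 and 16.4 CPM 60 h after injury and 147 and 180.1 CPM in uninjured younger cells (difference -2.45 ± 0.66 SE, adjusted p = 0.027). Ccnd1 stood at 319 and 293 CPM in oASC and 16.5 and 18.5 CPM in oQSC, and at 272 and 271 CPM 60 h after injury and 153 and 79.4 CPM in uninjured younger cells (2.90 ± 0.80 SE, adjusted p = 0.03). The 2 injured groups were closer to each other in Ccnd1 than the 2 uninjured ones. Fos, at the joint levels given for the label check, differed by -3.67 ± 0.98 (SE, adjusted p = 0.025). These 3 calls were lost when 1 library was left out: in all 8 cases for Calcr, in 7 of 8 for Ccnd1 (kept without the second uninjured library) and in 7 of 8 for Fos (kept without the first 60 h library).

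For the other genes of that choice the difference in response did not pass the test, which does not show that the responses were alike. Pax7 had a difference of 0.52 ± 1.37 (SE, adjusted p = 1.00), and fell by 3.44 on the log2 scale in younger cells. Myod1 had -3.92 ± 1.85 (SE, adjusted p = 0.22), Notch1 1.52 ± 0.47 (SE, adjusted p = 0.051) and Notch3 3.30 ± 1.06 (SE, adjusted p = 0.063). The replication gene Mcm5 and the mitosis gene Top2a rose on both sides, with Mcm5 at 5.46 in old and 6.75 in younger cells and Top2a at 5.76 in old and 6.76 in younger cells on the log2 scale. Spry1 had log2 fold changes of -3.37 in old and -3.17 in younger cells, and Heyl of -3.94 in old and -2.58 in younger cells.

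**Figure D4:**
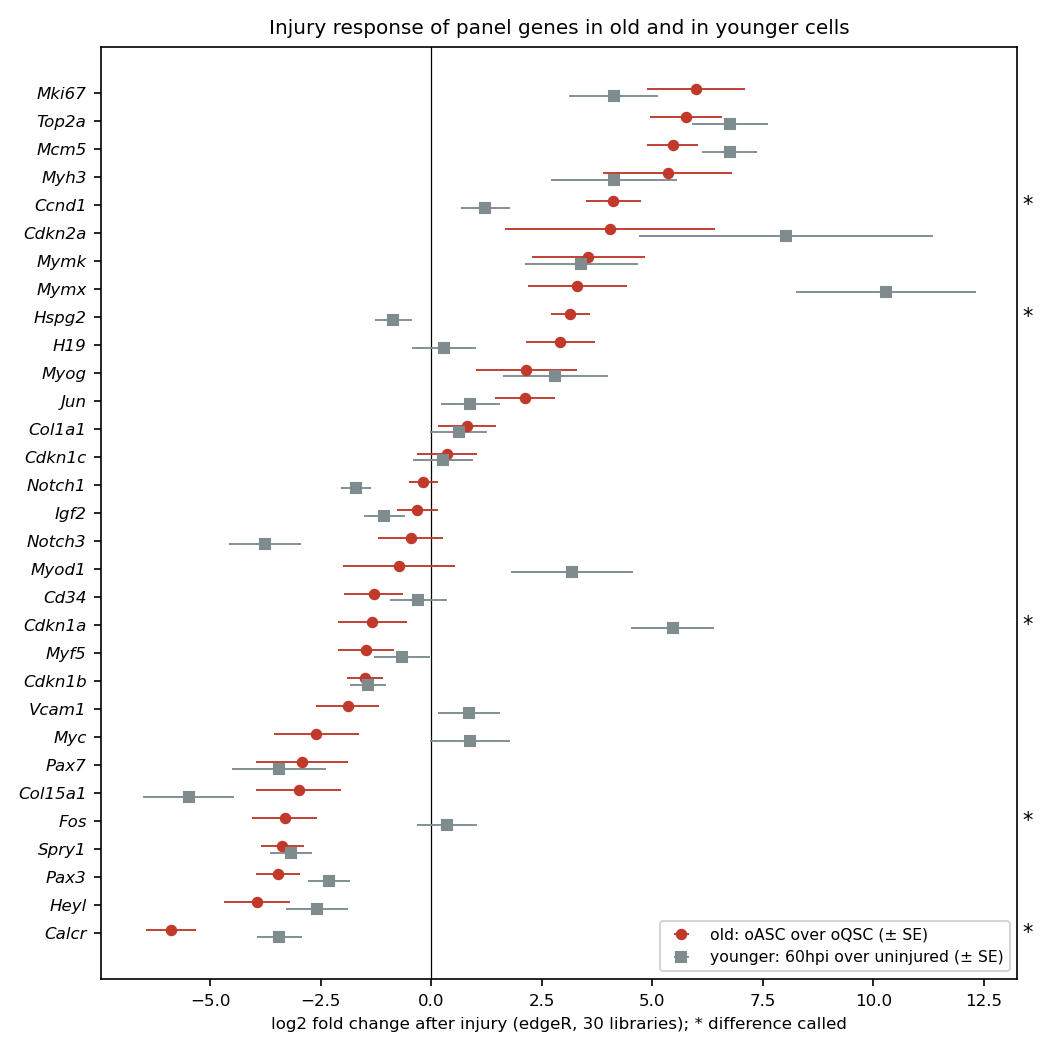
Log2 fold changes after injury (± SE) of 31 genes, red circles for old cells (oASC over oQSC) and grey squares for younger cells (60hpi over uninjured), from the fit over 30 libraries. Stars mark the 5 genes whose responses differed, and Cdkn1a shows the widest gap among them, with -1.33 in old and 5.46 in younger cells. Cdkn2a and Mymx have no count in the uninjured younger libraries and are drawn at their fitted values.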

How the data were processed

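The authors deposited whole-number read counts per gene, a separate table holding the old cells, and per the submitters' processing notes the tools named are StringTie 1.3.3, SAMtools 1.3, HISAT2 2.1.0 and Trimmomatic 0.36, and the build is mm10. The counting program and its strand setting, like the release of the annotation, were not given in the sources used here, so reads of overlapping, antisense or near-identical genes can be assigned to either. Per the labels' protocols, cDNA was made with SMART-Seq v4 and sequenced in paired reads of 100 cycles, and no molecular identifiers are named, so amplified copies are counted. Bounds from the floor of 3 counts cover counting error only.

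Counts of the 6 old libraries were fitted together with edgeR 4.0.16 in R 4.3.3 (limma 3.58.1 and data.table in version 1.17.8). Genes passed filterByExpr (minimum count 10), libraries were scaled by TMM, and oASC was compared with oQSC by the quasi-likelihood F test with Benjamini-Hochberg adjustment over all 30099 genes tested, at 0.05. Standard errors are the absolute log2 fold change over the square root of F. The comparison with younger cells used all 30 libraries over 55154 gene identifiers matched without version number. Both tests were run on simulated data with 200 changed genes and the same spread for every gene. The test of responses was simulated with only the 8 libraries of its groups, not all 30. Far more genes were called in the data, so the simulation does not vouch for the calls given here. Classes of gene models follow GENCODE M21 biotypes, and promoters come from RefSeq tables (GRCm38.p6). Python 3.11.15, pandas 2.3.3 and matplotlib 3.10.9 were used for the rest.

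The 12 largest rises and falls of named genes that reached 20 CPM in either group and did not overlap between the groups, for each list its 4 members (or fewer) of smallest adjusted p, and a panel of 31 genes were named. Other genes, and members at 0 counts, were named after their values were seen. Some genes that the rule takes are not reported here. The lists, 57 in all of which 7 are later additions, and the genes were chosen with earlier results of these data known. A list is described by how many of its tested members passed the test in each direction and by its median log2 fold change. These are to be read beside the values of all genes tested. Its members share these libraries and are no replicates. Medians of lists with a gene at 0 counts in a group are the same with that gene at its bound, and none are given for markers of other cells. The alternatives were RLE and upper quartile scaling, DESeq2 1.42.0, other filters, the replicate number as a block, other sets of libraries, a test against a 2-fold change and leaving out each library. Counts within a pair differed beyond counting noise (chi-square of 23.3 per degree of freedom in oASC and 50.8 in oQSC), which amplified technical repeats could also do, and every library was counted as its own sample.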

Additional observations from a re-analysis of the deposited data

Results flagged for a closer look

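Among all genes, 2098 of 28823 tested (7.28%) differed in injury response between old and younger cells by a test of the difference itself. The 5 genes below are those called within the panel chosen for this comparison, with earlier results of these data known. The calls of Cdkn1a and Hspg2 held whichever library of these groups was left out. Those of Fos, Ccnd1 and Calcr were lost in most or all such fits. The difference, old minus younger on the log2 scale, was -6.79 for Cdkn1a, 4.01 for Hspg2, -3.67 for Fos, 2.90 for Ccnd1 and -2.45 for Calcr. In Cdkn1a the old response was -1.33 and the younger 5.46, in Hspg2 the old was 3.15 and the younger -0.86, and in Fos the old was -3.31 and the younger 0.36. In Ccnd1 the old response was 4.12 and the younger 1.23, and in Calcr the old was -5.89 and the younger -3.44. Of these younger responses, those of Cdkn1a and Calcr passed the test and those of Hspg2, Fos and Ccnd1 did not (adjusted p = 0.15, 0.86 and 0.13). The old response of Cdkn1a, called in the fit of old libraries, did not pass in the fit over all 30 (adjusted p = 0.27). Age, table and handling go together in these groups and cannot be told apart. Groups of 2 libraries are too small to look for a library that stands apart in a single gene.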

How the results depend on the processing

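The comparison of oASC with oQSC called 12137 genes of 30099 tested. It called 12243 with RLE size factors, 12932 with upper quartile scaling and 11811 with DESeq2. With no filter it called 12396, and 10934 with a minimum count of 50. Without unnamed, ribosomal RNA, repeat and mitochondrial models it called 9468 of 19172 tested, and 12580 with only these 4 libraries in the fit. Tested against a 2-fold change, a stricter call by construction, it gave 7170, and leaving out 1 library gave 8564 to 10030. The difference between the responses of old and younger cells called 2098 genes, and 2138, 2122, 2519, 2711 and 1939 with RLE, upper quartile, no filter, the minimum of 50 and without those models. It gave 4161 with DESeq2 and 8003 with only 8 libraries in the fit, where the cause was not tested, and 681 to 1100 with 1 library fewer. Changes of sign were limited to genes that were not called: with 1 library left out Notch1 lay between -0.42 and 0.10 and Bub3 between -0.14 and 0.10, and Bub3 was at 0.13 with no filter and Cdkn1c at -0.086 with upper quartile scaling. Upper quartile scaling ended the calls of Rrm2, Relb, Gas1 and Tap2 and made calls of Myod1, Igf2 and Notch3. Myod1 was also called with DESeq2, with the minimum of 50, without those models and with only 4 libraries in the fit. Cdkn2a and Col1a1 were called with no filter and with only 4 libraries in the fit. With 2 libraries a group, errors rest on few values, and low levels such as that of Cdkn2a are limited by depth.

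Replicate numbers are shared between groups, but same-numbered libraries did not deviate together across genes (r = -0.01 between oASC and oQSC, over 30099 genes that are not independent), so they were not taken as pairs. With the replicate number as a block 10985 genes were called between oASC and oQSC, 10793 of them among those called without it, and 1896 between old and younger responses. The block changed no call of a gene named in the report in the comparison of oASC with oQSC.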
